A study of Mus musculus with 10 samples.

Results

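The 35 genes described here act in G2 and mitosis, from cyclins and mitotic kinases to kinetochore, spindle and cytokinesis proteins, and were taken as a named list of symbols. All 35 were found among the 57180 genes of the RNA-seq table and were among the 15298 genes that passed the filter on low counts. The cells, labelled NSPCs (neural stem and progenitor cells), came from mouse brain, carried the genotype label Mina53-KO or WT, and received no treatment. Poly(A) RNA-seq covered 3 KO and 3 WT libraries, and CUT&Tag, in which a transposase tethered to an antibody cuts the chromatin beside it, covered 2 KO and 2 WT libraries. Mina53, current symbol Riox2, is a JmjC-domain protein to which the series title gives arginine demethylase activity on histone H4. Not given in the sources used here are the way the KO was made, the strain and age of the mice, the brain region, and the CUT&Tag antibody. Nothing in the labels ties a library to an animal or a culture of its own, and a p-value here therefore covers only library-to-library spread, which may be technical.

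A cell enters mitosis when CDK1, bound to A- and B-type cyclins, becomes active, and it leaves mitosis when the anaphase-promoting complex (APC/C) marks those cyclins and the separase inhibitor securin for destruction. In between, condensed chromosomes attach through their kinetochores to spindle microtubules, and the spindle checkpoint holds the APC/C back until every kinetochore is attached. Transcripts of these genes accumulate late in the cell cycle under the MuvB complex with B-MYB and FOXM1, and are repressed in resting cells by the related DREAM complex. Both complexes are recruited through the cell cycle genes homology region (CHR) in the promoter, often near CCAAT boxes bound by NF-Y. In the embryonic brain, radial glia divide at the ventricular surface, and NSPC cultures are proliferating populations.

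Promoters holding these words were more frequent among the members than among all promoters. Windows of 250 bases before and 50 after the transcription start (TSS, position 1) from RefSeq, build GRCm38.p6, were matched by symbol for 29 of the 35 genes, which gave 31 windows. Bub3 and Prc1 had overlapping windows that hold the same words, so these genes count more than once. The words searched on both strands were TTTGAA and TTTAAA for the CHR, and CCAAT. A CHR word was found in 27 of the 31 windows (87.1%), against 27.6% of all 32851 windows. CCAAT was found in 24 (77.4%, against 37.4%), both kinds in 23 (74.2%, against 10.7%), and at least 2 CCAAT words in 17 (54.8%, against 11.7%). The windows of Bub1, Mad2l1, Nuf2 and Nusap1 held no CHR word. A CHR word and a CCAAT word overlapped in 1 window of the 31. These matches describe letters in a window and are not binding sites.

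The 120 bases before the TSS are shown for 7 members, on the strand of the gene, with CHR and CCAAT words of either orientation in capitals. Ccnb2 at chr9:70421555-70421674 (minus strand) is the one member that passed the RNA test, and Cenpf at chr1:189688087-189688206 (minus strand) had the highest log2 fold change. Plk1 at chr7:122159315-122159434 (plus strand) had the CUT&Tag region with the smallest p. Cdc20 at chr4:118437344-118437463 (minus strand) and Kif11 at chr19:37376262-37376381 (plus strand) differed most, in opposite directions, between KO libraries of high and low mitochondrial share. Cdk1 at chr10:69352913-69353032 (minus strand) and Ccnb1 at chr13:100786487-100786606 (minus strand) encode the kinase of mitotic entry and its main cyclin partner.
Ccnb2: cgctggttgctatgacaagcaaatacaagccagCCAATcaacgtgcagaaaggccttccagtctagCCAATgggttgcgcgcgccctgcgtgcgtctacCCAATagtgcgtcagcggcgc
Cenpf: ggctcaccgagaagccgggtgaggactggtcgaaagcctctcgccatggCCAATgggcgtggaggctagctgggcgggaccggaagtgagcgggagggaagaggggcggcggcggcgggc
Plk1: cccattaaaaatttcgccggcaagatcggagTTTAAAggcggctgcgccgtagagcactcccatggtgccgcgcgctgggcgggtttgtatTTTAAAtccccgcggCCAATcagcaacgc
Cdc20: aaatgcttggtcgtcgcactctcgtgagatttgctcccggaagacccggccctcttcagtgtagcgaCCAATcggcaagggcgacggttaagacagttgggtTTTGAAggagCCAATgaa
Kif11: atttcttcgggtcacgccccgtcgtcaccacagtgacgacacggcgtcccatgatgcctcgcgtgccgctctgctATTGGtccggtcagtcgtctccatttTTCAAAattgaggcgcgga
Cdk1: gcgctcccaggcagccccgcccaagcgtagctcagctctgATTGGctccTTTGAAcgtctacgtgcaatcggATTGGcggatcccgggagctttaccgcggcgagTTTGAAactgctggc
Ccnb1: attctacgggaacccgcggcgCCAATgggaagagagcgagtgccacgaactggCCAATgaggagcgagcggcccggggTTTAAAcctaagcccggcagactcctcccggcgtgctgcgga
Ccnb2 had 3 CCAAT words in this stretch, the first bases of which lay at −87, −54 and −21, and its CHR words lay outside it, at −167 and at 5. Cenpf likewise had a CCAAT at −71 and its CHR words outside the stretch, at −154 and at 3. The other sequences each held a CHR word within 42 bases of the TSS, first base at −42 in Ccnb1, −29 in Plk1, −19 in Kif11, −18 in Cdc20 and −15 in Cdk1.

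The RNA libraries held 19923010 to 25939376 counts. Levels in CPM, counts scaled to library size, include TMM factors, and TPM, which are also scaled to gene length, are used wherever levels of different genes are set side by side. The targeted gene Riox2 had 3.24, 3.79 and 3.69 CPM in KO 1, KO 2 and KO 3, against 19.9, 17.2 and 18.5 CPM in WT 1, WT 2 and WT 3, and it fell in the KO libraries (edgeR, log2 fold change −2.37, SE 0.15, adjusted p = 0.000324). Mitochondrial transcripts made up 2.68, 2.65 and 4.64% of the counts in KO 1, KO 2 and KO 3, and 2.31, 5.71 and 3.52% in WT 1, WT 2 and WT 3, so that KO 3, WT 2 and WT 3 formed a class above 3% and KO 1, KO 2 and WT 1 a class below it. The first principal component of all tested genes, 47.4% of the variance, separated the same 2 classes and not the genotypes. The classes were read from these counts and are not labelled, and 2 of the 3 KO libraries but 1 of the 3 WT libraries were in the low class, so results are given with and without the class as a covariate. Of 13 neural stem and progenitor markers, all passed the filter, and in edgeR Vim rose and Slc1a3 fell. Nes, Pax6, Vim, Hes5 and Slc1a3 had an unadjusted p under 0.05 in edgeR, 2 of these 5 with a negative fold change. DESeq2 called Pax6, Vim and Slc1a3. The list summed to 7710 to 8713 CPM in KO and 7226 to 7518 CPM in WT. The neuron list, mostly Map2, summed to 673 to 942 CPM in KO and 529 to 733 CPM in WT. None of the 6 neuron markers tested was called in edgeR without the covariate, and 3 of them had negative log2 fold changes. Tubb3, Snap25 and Dcx had an unadjusted p under 0.05 in this fit, Snap25 with a negative fold change. DESeq2 called Tubb3 and Dcx, and with the class covariate Map2, Tubb3 and Dcx rose in edgeR. Tubb3 averaged 6.54 CPM in KO and 3.56 CPM in WT, and Dcx 3.03 CPM in KO and 1.01 CPM in WT. With the covariate, 3 of the stem and progenitor markers rose and 2 fell. Of all tested genes, edgeR called 3.43% without the covariate and 11.1% with it, and 13.7% had an unadjusted p under 0.05 without it. Markers of other cells were low. Microglia markers summed to 0.125 to 0.428 CPM in KO and 0.231 to 0.555 CPM in WT, with Cx3cr1 at 0 throughout, and erythroid markers to at most 0.0831 CPM in KO and 0.0422 CPM in WT, with Hbb-bs, Hbb-bt and Hba-a2 at 0. Endothelial markers summed to 1.91 to 2.22 CPM in KO and 1.23 to 1.52 CPM in WT, with Cdh5 and Cldn5 at 0, and fibroblast markers to 6.90 to 9.76 CPM in KO and 7.40 to 7.67 CPM in WT. The part of the neuron and stem cell shifts in the results below was not tested.

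The G2 and mitosis genes were abundant in both genotypes. Mean levels in KO libraries ran between 28.0 and 307 TPM, and those in WT libraries between 30.2 and 312 TPM. In WT, 17 of the 35 lay above the 90th percentile of tested genes, and the lowest, Cenpe, was at percentile 64.01. Cdk1 had 307 ± 15.4 TPM in KO and 312 ± 9.03 TPM in WT and Top2a 278 ± 28.2 TPM in KO and 312 ± 25.1 TPM in WT (SD, n = 3 each), the first and second in both genotypes, and in WT they differed by less than their SDs. The lowest was Cenpe, a kinetochore kinesin, with 27.96 ± 3.30 TPM in KO and 30.2 ± 3.67 TPM in WT. The order of the 35 genes by mean TPM was nearly the same in both genotypes (Spearman's rho 0.99 over the 35 genes, a description).

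The comparison of KO with WT libraries addresses what loss of Mina53 does to the RNA of these genes. One member, Ccnb2, fell, none rose, and 34 did not pass the test, in edgeR's quasi-likelihood test with Benjamini-Hochberg adjustment over all 15298 genes at a threshold of 0.05. That is 2.86% of the members, against 3.43% of all tested genes called in either direction (1.66% lower and 1.77% higher), so the share called is no higher than the background. DESeq2 also called Ccnb2 and no member as higher. The unadjusted p was under 0.05 for 4 members, against 13.7% of all tested genes. These were Mki67, Ccnb2, Anln and Cenpf, the last of them with a positive fold change. Of the 35 log2 fold changes, 33 were negative, against 48.9% of all tested genes (31, against 44.1%, when scaled to library totals, where Cdc20 and Kif2c turned positive), and the median was −0.13, against 0.01 over all tested genes. Most differences were small: 26 of the 35 lay between −0.2 and 0.2, with SEs of 0.088 to 0.20. All 3 KO libraries lay below all 3 WT libraries for 7 members (Mki67, Ccnb2, Aurkb, Bub1b, Kif4, Kif20a and Tpx2), a pattern seen for 9.3% of all tested genes, and above them for Cenpf alone, a pattern seen for 9.68%. Because the members share their libraries and vary together, these counts are a description without a test.

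Summed over the 35 genes, the level was 5386, 5293 and 5653 CPM in KO 1, KO 2 and KO 3, against 5686, 6345 and 6019 CPM in WT 1, WT 2 and WT 3. The 3 KO sums lay below the 3 WT sums, with KO 3 close to WT 1, and the difference was not tested. Within each genotype the sums were lower in the libraries of low mitochondrial share, which made up more of the KO than of the WT libraries. Within each class the KO sums also lay below the WT sums. The part of the class in the lower KO sums was not tested. In bulk RNA, fewer cells in G2 and mitosis and less RNA of these genes per cell cannot be told apart.

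**Figure D1:**
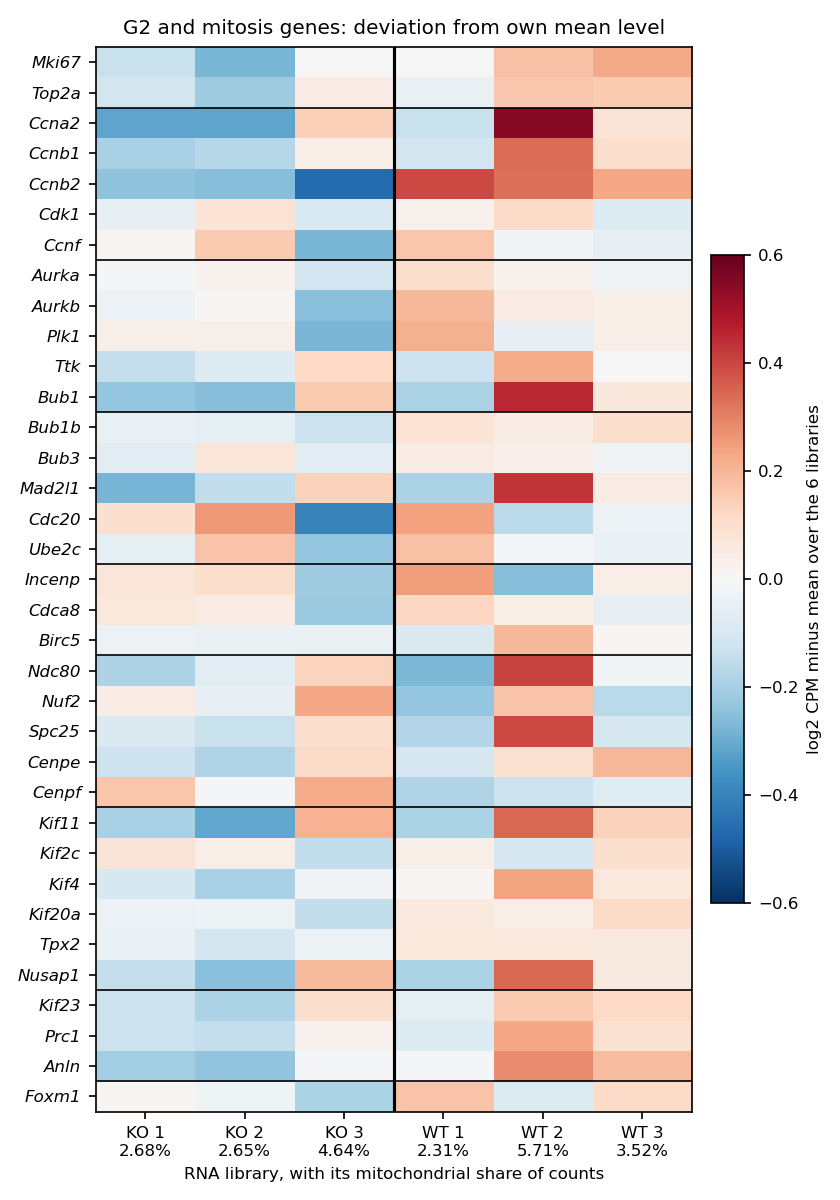
Deviation of each of the 35 genes from its own mean over the 6 RNA libraries (colour, log2 CPM), with KO libraries left of WT libraries, the mitochondrial share of each library below its name, and lines between functional groups. Ccnb2 is blue in all 3 KO libraries and red in all 3 WT libraries, Cenpf is the reverse except for a near-white KO 2, and WT 2 is the reddest column, with 27 of the 35 genes above their own mean.

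The proliferation and chromosome structure genes were Mki67, which coats mitotic chromosomes and is the common marker of cycling cells, and Top2a, which untangles sister DNA. Mki67 had 566, 513 and 622 CPM in KO 1, KO 2 and KO 3, against 623, 702 and 728 CPM in WT 1, WT 2 and WT 3. KO 3 came within 1 CPM of WT 1, and the groups did not overlap. The difference did not pass the test (edgeR, log2 fold change −0.27, SE 0.11, adjusted p = 0.336). Top2a had 632, 589 and 705 CPM in KO 1, KO 2 and KO 3, against 661, 764 and 761 CPM in WT 1, WT 2 and WT 3, with KO 3 above WT 1 (edgeR, log2 fold change −0.18, SE 0.11, adjusted p = 0.601).

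Among the cyclins and their kinase, Ccnb2 stood apart. Cyclin B2 is the B-type cyclin associated with the Golgi, and it overlaps in function with cyclin B1. Ccnb2 had 54.3, 53.8 and 46.5 CPM in KO 1, KO 2 and KO 3, against 84.3, 80.5 and 75.4 CPM in WT 1, WT 2 and WT 3. Every KO library lay below every WT library, and the gap between the highest KO and the lowest WT library exceeded the range within either group. It averaged 51.5 ± 4.33 CPM in KO and 80.1 ± 4.44 CPM in WT (SD, n = 3 each), 1.55-fold lower in KO (edgeR, log2 fold change −0.64, SE 0.11, adjusted p = 0.0215). The call was lost without KO 1 (adjusted p = 0.0957), KO 2 (0.0844), WT 2 (0.0570) or WT 3 (0.0976) in edgeR, while the log2 fold change stayed between −0.69 and −0.58 over the 6 omissions. Ccnb1, the principal mitotic cyclin in mouse, had 215, 219 and 252 CPM in KO 1, KO 2 and KO 3, against 228, 310.4 and 265 CPM in WT 1, WT 2 and WT 3. KO 3 exceeded WT 1, so the groups overlapped (edgeR, log2 fold change −0.23, SE 0.14, adjusted p = 0.586). Cdk1 had 167, 183 and 162 CPM in KO 1, KO 2 and KO 3, against 176, 187 and 163 CPM in WT 1, WT 2 and WT 3, with interleaved libraries and a log2 fold change near 0 (edgeR, log2 fold change −0.042, SE 0.10, adjusted p = 0.937). Ccna2, the cyclin of S phase and G2, ranged widely within each genotype, with 200.01, 200.2 and 275 CPM in KO 1, KO 2 and KO 3, against 227, 363 and 262 CPM in WT 1, WT 2 and WT 3. The highest library was WT 2, and KO 3 exceeded WT 1 and WT 3 (edgeR, log2 fold change −0.34, SE 0.20, adjusted p = 0.586). Its counts, like those of Kif4, Kif20a and Prc1, were fractional in all 6 libraries, so part of their reads may be shared with other features, which makes their levels less certain. Ccnf, an F-box cyclin that is part of a ubiquitin ligase, had a log2 fold change of −0.059 (SE 0.14).

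None of the 5 mitotic kinases passed the test. Aurkb, the kinase that corrects wrong attachments, had 69.7, 71.7 and 60.1 CPM in KO 1, KO 2 and KO 3, against 81.8, 73.8 and 73.2 CPM in WT 1, WT 2 and WT 3, with KO 2 just under WT 3 and no overlap of the groups (edgeR, log2 fold change −0.18, SE 0.11, adjusted p = 0.614). Plk1, which acts in entry, spindle assembly and cytokinesis, had 147, 148 and 119 CPM in KO 1, KO 2 and KO 3, against 167, 139 and 148 CPM in WT 1, WT 2 and WT 3. KO 3 was the lowest, and KO 1 and KO 2 lay above WT 2 (edgeR, log2 fold change −0.13, SE 0.13, adjusted p = 0.816). Log2 fold changes were −0.067 (SE 0.10) for Aurka, the spindle pole kinase, −0.069 (SE 0.13) for Ttk, the kinase that starts checkpoint signalling, and −0.23 (SE 0.19) for Bub1, the checkpoint kinase at the kinetochore.

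The spindle checkpoint and APC/C members had log2 fold changes between −0.20 and −0.01, and none of the 5 passed the test. Bub1b, which encodes the APC/C inhibitor BubR1, had 134, 133 and 126 CPM in KO 1, KO 2 and KO 3, against 146, 143 and 149 CPM in WT 1, WT 2 and WT 3. The KO libraries lay below the WT libraries, without overlap (edgeR, log2 fold change −0.15, SE 0.093, adjusted p = 0.599). Its binding partner Bub3 had a log2 fold change of −0.034 (SE 0.10), and Mad2l1, another checkpoint inhibitor, −0.20 (SE 0.18). Cdc20, the APC/C activator that the checkpoint holds back, had 188, 210.3 and 133 CPM in KO 1, KO 2 and KO 3, against 208, 157 and 171 CPM in WT 1, WT 2 and WT 3. The lowest and the highest library were both KO, KO 3 and KO 2 (edgeR, log2 fold change −0.011, SE 0.18, adjusted p = 0.991). Ube2c, the ubiquitin-conjugating enzyme of the APC/C, had a log2 fold change of −0.074 (SE 0.13).

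The chromosomal passenger genes, which encode the proteins that place Aurora B on centromeres and the midzone, did not pass the test either. Birc5, encoding survivin, had 58.2, 58.02 and 57.7 CPM in KO 1, KO 2 and KO 3, against 56.1, 68.3 and 60.00 CPM in WT 1, WT 2 and WT 3, with WT 1 lowest and WT 2 highest (edgeR, log2 fold change −0.083, SE 0.11, adjusted p = 0.88). Incenp had a log2 fold change of −0.029 (SE 0.15) and Cdca8, encoding borealin, −0.07 (SE 0.12).

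Among 5 kinetochore genes, both members with positive fold changes were found. Cenpf encodes a large protein of the outer kinetochore that accumulates in G2 and also binds dynein adaptors and microtubules. Cenpf had 221, 195 and 229 CPM in KO 1, KO 2 and KO 3, against 173, 179.6 and 187 CPM in WT 1, WT 2 and WT 3. All 3 KO libraries were above all 3 WT libraries, and the difference did not pass the test without the class covariate (edgeR, log2 fold change 0.26, SE 0.10, adjusted p = 0.31). Nuf2, which with Ndc80 and Spc25 belongs to the microtubule-binding NDC80 complex, had 153, 143 and 174 CPM in KO 1, KO 2 and KO 3, against 126, 167 and 132 CPM in WT 1, WT 2 and WT 3, with WT 2 between KO 1 and KO 3 (edgeR, log2 fold change 0.14, SE 0.14, adjusted p = 0.817). The other NDC80 members had negative values, −0.10 (SE 0.18) for Ndc80 and −0.10 (SE 0.17) for Spc25, and Cenpe had −0.13 (SE 0.13).

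Of the kinesins and spindle proteins, none of 6 passed the test and all had negative log2 fold changes, except that Kif2c was positive when scaled to library totals. Kif4, a chromokinesin, had 91.1, 85.1 and 96.1 CPM in KO 1, KO 2 and KO 3, against 98.4, 115 and 102 CPM in WT 1, WT 2 and WT 3, all KO below all WT (edgeR, log2 fold change −0.21, SE 0.11, adjusted p = 0.497). Kif20a, a kinesin of the central spindle, had 149, 149 and 137 CPM in KO 1, KO 2 and KO 3, against 158, 157 and 165 CPM in WT 1, WT 2 and WT 3, again without overlap (edgeR, log2 fold change −0.14, SE 0.10, adjusted p = 0.657). Tpx2, the activator of Aurora A on spindle microtubules, had the smallest SD of the 35 within WT, at 272 ± 7.93 CPM in KO and 296 ± 0.890 CPM in WT (SD, n = 3 each), also without overlap, and its log2 fold change was −0.12 (SE 0.088). Kif11, the motor that pushes spindle poles apart, had −0.20 (SE 0.18), Nusap1, a microtubule bundler, −0.14 (SE 0.17), and Kif2c, a microtubule depolymerase, −0.022 (SE 0.11).

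The 3 genes of the central spindle and cytokinesis were Anln, a scaffold of the contractile ring, Prc1, which bundles midzone microtubules, and Kif23, a centralspindlin motor. Anln had 95.4, 93.4 and 109.6 CPM in KO 1, KO 2 and KO 3, against 109, 134 and 125 CPM in WT 1, WT 2 and WT 3. KO 3 lay just above WT 1 and the rest were separated (edgeR, log2 fold change −0.31, SE 0.12, adjusted p = 0.301). Prc1 had 283, 280.4 and 315 CPM in KO 1, KO 2 and KO 3, against 293, 364 and 330.2 CPM in WT 1, WT 2 and WT 3, with KO 3 inside the WT range (edgeR, log2 fold change −0.17, SE 0.11, adjusted p = 0.666). Kif23 had a log2 fold change of −0.15 (SE 0.12). Foxm1, the transcription factor that acts on many of the other genes in G2, had 159, 155 and 138 CPM in KO 1, KO 2 and KO 3, against 177, 149 and 171 CPM in WT 1, WT 2 and WT 3, with WT 2 below KO 1 and KO 2 (edgeR, log2 fold change −0.14, SE 0.11, adjusted p = 0.761).

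**Figure D2:**
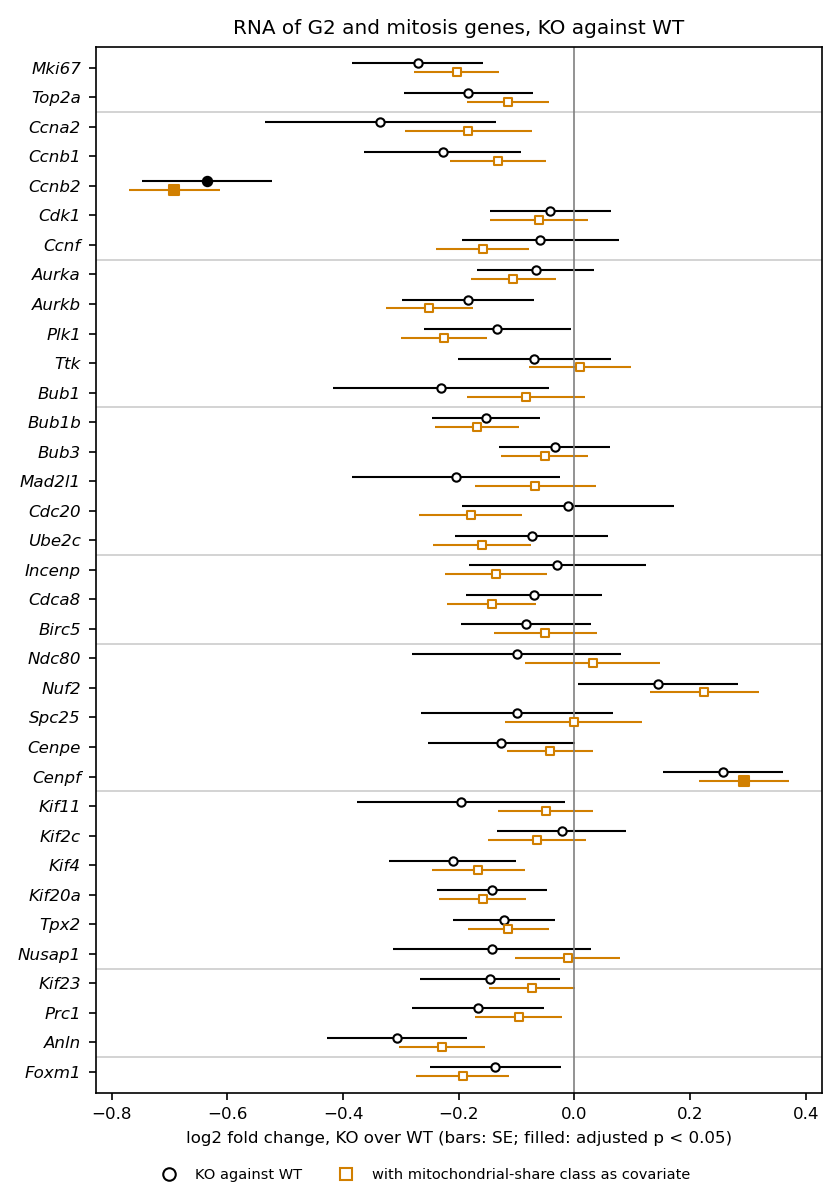
Log2 fold change of each gene, KO over WT, with its SE as a bar, from edgeR without (black circles) and with (orange squares) the mitochondrial-share class as covariate, where filled symbols passed an adjusted p of 0.05. Ccnb2 is filled in both fits at −0.64 and −0.69, Cenpf is filled with the covariate at 0.29, and most other symbols lie left of 0.

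The members also differed between libraries of high and low mitochondrial share, some upward and some downward. In 13 genes all 3 high-share libraries lay above all 3 low-share libraries, a pattern of 20.5% of all tested genes: Top2a, Ccna2, Ccnb1, Ttk, Bub1, Mad2l1, Ndc80, Cenpe, Kif11, Nusap1, Kif23, Prc1 and Anln. In 4 genes, Ccnf, Cdc20, Incenp and Cdca8, all 3 lay below, a pattern of 21.4% of all tested genes. The remaining 18 overlapped. All 3 genes of the central spindle and cytokinesis thus lay higher in the high-share class, and 2 of the 3 chromosomal passenger genes lay lower. Kif11 had 166, 153 and 219.8 CPM in KO 1, KO 2 and KO 3, against 167, 241 and 209 CPM in WT 1, WT 2 and WT 3. KO 3 stood above KO 1 and KO 2 in the way that WT 2 and WT 3 stood above WT 1, as in Ccna2, and the reverse held for Cdc20. Bub1 followed Kif11, with 65.04, 63.9 and 85.3 CPM in KO 1, KO 2 and KO 3, against 66.96, 104 and 80.1 CPM in WT 1, WT 2 and WT 3. Within KO and within WT, 18 members were higher in the high-share libraries of both genotypes, 14 lower in both, and 3 mixed. The difference between classes within KO, which uses no library of the difference within WT, correlated with it at a Spearman's rho of 0.95 over the 35 genes and 0.72 over all tested genes, which are descriptions since the genes share their libraries. No test was made between the classes, which were drawn from these counts.

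**Figure D3:**
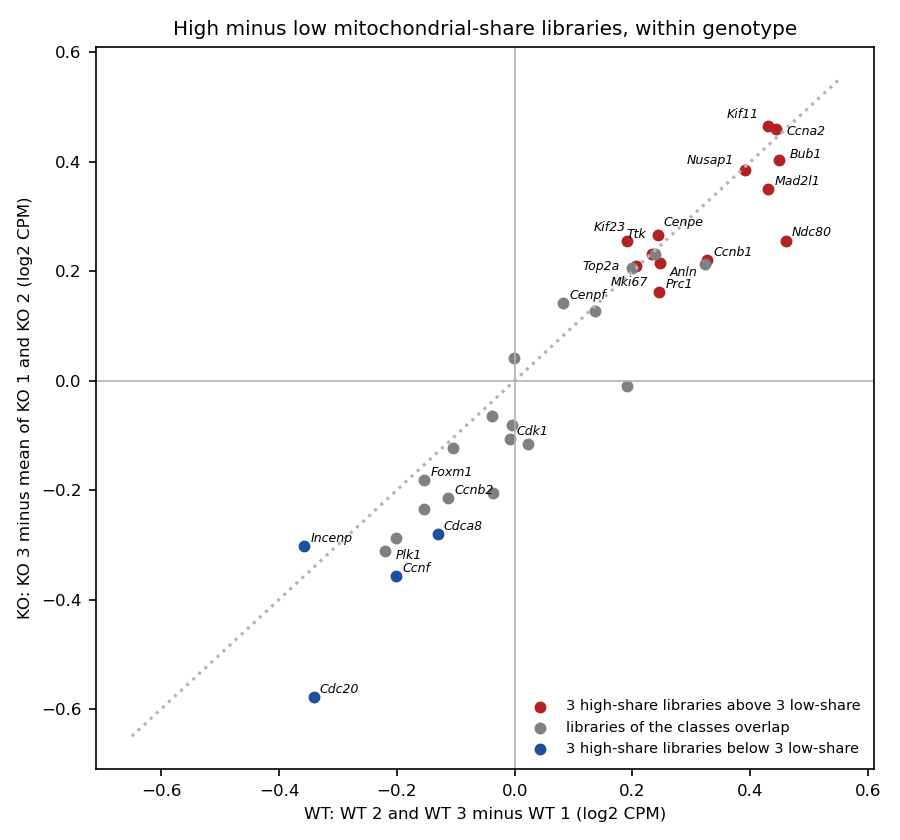
Each point is one of the 35 genes, with the high minus low mitochondrial-share difference in log2 CPM within KO on the y axis and within WT on the x axis, and equality as a dotted line. Kif11, Ccna2 and Bub1 lie at the upper right and Cdc20 and Incenp at the lower left, and most genes lie along the line.

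With the class as a covariate, Ccnb2 fell (edgeR, log2 fold change −0.69, SE 0.079, adjusted p = 0.000158) and Cenpf rose (edgeR, log2 fold change 0.29, SE 0.078, adjusted p = 0.0319). That is 5.71% of the members, against 11.1% of all tested genes called in this fit (5.18% lower and 5.9% higher). The unadjusted p was under 0.05 for 9 members, against 22.7% of all tested genes. The common biological coefficient of variation over all genes was 9.06% with the covariate, against 17.9% without it. The next members by adjusted p were Aurkb (edgeR, log2 fold change −0.25, SE 0.075, adjusted p = 0.0556), Anln (edgeR, log2 fold change −0.23, SE 0.074, adjusted p = 0.075) and Plk1 (edgeR, log2 fold change −0.22, SE 0.074, adjusted p = 0.0807), which did not pass. Fold changes of the genes that tracked the class moved towards 0, with Ccna2 at −0.18, Bub1 at −0.084 and Kif11 at −0.05. Those of Cdc20, at −0.18, and Incenp, at −0.14, moved away from it. The median over the members was −0.11 and 31 were negative. With the log2 mitochondrial share itself as covariate, chosen after the data were seen, 6 members were called in edgeR, against 15.3% of all tested genes (7.07% lower and 8.24% higher), with Mki67, Ccna2, Ccnb2 and Anln lower and Nuf2 and Cenpf higher.

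Within each class the comparison rests on 3 libraries and has no test. In the low-share class, KO 1 and KO 2 against WT 1, the median difference was −0.08 log2 CPM and 28 of the 35 genes were negative, against 49.6% of all tested genes. In the high-share class, KO 3 against WT 2 and WT 3, it was −0.14 with 32 negative, against 50.2%. The direction was lower in both classes for 28 members, higher in both for 3 and opposite for 4. Ccnb2 differed by −0.64 in the low-share and −0.74 in the high-share class, and Cenpf by 0.26 and 0.32.

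The wider machinery showed few calls, by lists chosen from textbook roles with earlier results of these data known. For comparison, edgeR called 3.43% of all tested genes, and 13.7% had an unadjusted p under 0.05. Of 12 MuvB and DREAM regulators, the complexes that act on CHR promoters, none passed edgeR's test, none reached an unadjusted p under 0.05 and DESeq2 called none, and their median log2 fold change was −0.04. Lin52 had the smallest p, at −0.36 (SE 0.16). Of 19 APC/C subunits and regulators, the counts were likewise 0, 0 and 0, with a median of −0.03. Of 12 genes of the CDK1 switch neither tool called any, 1 had an unadjusted p under 0.05, and −0.09 was the median. That gene, the CDK1-activating phosphatase Cdc25b, had 55.2, 60.2 and 53.6 CPM in KO 1, KO 2 and KO 3, against 72.9, 61.4 and 71.2 CPM in WT 1, WT 2 and WT 3 (edgeR, log2 fold change −0.28, SE 0.11, adjusted p = 0.318), and it fell with the class covariate (edgeR, log2 fold change −0.32, SE 0.087, adjusted p = 0.0351). Cdc25b was the 1 gene of these 12 called in that fit, against 11.1% of all tested genes. Of 16 condensin and cohesin genes none was called by either tool and none had an unadjusted p under 0.05. Of these, 13 were negative, against 48.9% of all tested genes, and the median was −0.11.

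The list of 40 other kinetochore and spindle genes had a median of −0.09 with 32 negative, against 48.9% of all tested genes. None was called in edgeR and 1, Hmmr, was called in DESeq2, which called 958 of all 15298 tested genes. Hmmr encodes a microtubule-associated protein of the spindle pole and had 110.1, 111 and 147 CPM in KO 1, KO 2 and KO 3, against 171, 254 and 207 CPM in WT 1, WT 2 and WT 3. All KO libraries were below all WT libraries (edgeR, log2 fold change −0.78, SE 0.18, adjusted p = 0.0572), and it fell with the class covariate (edgeR, log2 fold change −0.64, SE 0.089, adjusted p = 0.000716). Hmmr was the 1 gene of these 40 called in that fit, against 11.1% of all tested genes. The 41 S phase and replication genes were near the median of all genes, at −0.02 with 22 negative and none called in edgeR. Against 13.7% of all tested genes, 2 of the 41 had an unadjusted p under 0.05 in edgeR. Those were Mcm6, a subunit of the replicative helicase, with 289, 294 and 300.2 CPM in KO 1, KO 2 and KO 3, against 232, 247 and 228 CPM in WT 1, WT 2 and WT 3 (edgeR, log2 fold change 0.32, SE 0.091, adjusted p = 0.12), and Ccne1, the cyclin of the G1 to S transition (edgeR, log2 fold change 0.36, SE 0.11, adjusted p = 0.149). DESeq2 called Mcm6, and both rose in edgeR with the class covariate. These were 2 of the 41 genes, against 11.1% of all tested genes called in that fit. The summed S phase level was 4203 ± 106 CPM in KO and 4194 ± 158 CPM in WT, that of the G2 and mitosis genes 5444 ± 187 CPM in KO and 6017 ± 329 CPM in WT (SD, n = 3 each). The difference between the 2 lists was not tested.

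The CUT&Tag comparison addresses whether the chromatin feature bound by the unnamed antibody differed near these genes in KO. Of 69418 regions, with 2913959 to 4038765 reads in regions per library, 45 were assigned by the authors to 28 of the 35 genes, and 28 of these, for 24 genes, lay within 1000 bp of the assigned TSS. No region was assigned to Aurka, Aurkb, Bub1, Foxm1, Incenp, Kif4 or Tpx2, and Mki67 had only an intergenic one. Of all genes tested in RNA, 49.8% had a TSS region, and 62.5% of those within the members' range of WT TPM, against 68.6% of the members. The authors' annotation placed 68.9% of the members' regions in promoters, against 30.5% of all regions, a share that was not matched on WT TPM. At the members' TSS regions the median level was 13.8 CPM in KO and 17.5 CPM in WT, and at all TSS regions 13.3 CPM in KO and 14.4 CPM in WT. CPM here are relative to the reads in regions, and no spike-in is named, so a shift common to all regions cannot be measured.

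None of the 45 regions passed edgeR's test at an adjusted p of 0.05, against 5 of 69209 tested regions, 0.00722%. An unadjusted p under 0.05 was found for 3 in edgeR, against 5.35% of all tested regions, and for 2 in DESeq2, against 2.45%, which called none of the 45. Both KO libraries lay below both WT libraries in 13 regions, a pattern of 17.8% of all tested regions, and above them in 3, a pattern of 16.9%, and 29 overlapped. Among the 28 TSS regions, 20 log2 fold changes were negative, against 61.8% of all 14081 tested TSS regions, and the median was −0.13, against −0.11. Both KO libraries were below both WT libraries in 9 of the 28, a pattern of 27.1% of all tested TSS regions, and above them in none, against 11.3%. When only regions within 1000 bp of a TSS were summed per gene and scaled among themselves, 12 of the 24 members were negative, against 49.5% of all genes. With 2 libraries a group the SEs were 0.20 to 0.65 on the log2 scale.

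The smallest p was at the Plk1 TSS, GRCm39 chr7:121758494-121758765, with 9.26 and 9.18 CPM in KO 1 and KO 2, against 15.5 and 19.7 CPM in WT 1 and WT 2. The KO libraries were close together and below both WT libraries (edgeR, log2 fold change −0.93, SE 0.34, adjusted p = 0.773). The Ccna2 TSS region at chr3:36626031-36626519 had 19.5 and 22.8 CPM in KO 1 and KO 2, against 28.8 and 34.9 CPM in WT 1 and WT 2, without overlap (edgeR, log2 fold change −0.59, SE 0.23, adjusted p = 0.842). A region at −1339 bp from the Kif23 TSS, chr9:61855395-61855605, had 13.9 and 13.3 CPM in KO 1 and KO 2, against 20.04 and 22.8 CPM in WT 1 and WT 2 (edgeR, log2 fold change −0.65, SE 0.28, adjusted p = 0.903), whereas the region on the Kif23 TSS had 30.5 and 32.6 CPM in KO 1 and KO 2, against 33.6 and 31.1 CPM in WT 1 and WT 2. The next were an intronic Ccnf region at chr17:24444709-24445165, with 9.50 and 21.9 CPM in KO 1 and KO 2, against 8.73 and 11.4 CPM in WT 1 and WT 2 (edgeR, log2 fold change 0.62, SE 0.34, adjusted p = 0.933), where KO 2 alone was high, and the Ube2c TSS region at chr2:164611519-164611822, with 11.2 and 15.7 CPM in KO 1 and KO 2, against 20.7 and 17.3 CPM in WT 1 and WT 2 (edgeR, log2 fold change −0.51, SE 0.29, adjusted p = 0.933). The authors' deposited table gives a log2 ratio of −0.85 for the Plk1 region and −0.52 for the Ccna2 region, both with a q-value of 1. By the authors' unnamed test, the unadjusted p was 0.22 for Plk1 and 0.245 for Ccna2. That test gave a p under 0.05 at other member regions, of Cdca8 (0.0114, log2 ratio 0.50), Bub3 (0.0166, −0.37) and Ndc80 (0.0312, −0.20). The share of all regions with such a p in the authors' test was not counted. This Cdca8 region was annotated as downstream, 18081 bp from the TSS, and the Cdca8 TSS region had a p of 0.653 in the authors' test.

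The members that led in RNA did not lead here. The Ccnb2 TSS region at chr9:70328583-70328960 had 14.4 and 9.48 CPM in KO 1 and KO 2, against 5.82 and 12.5 CPM in WT 1 and WT 2, with overlapping groups and a higher KO mean (edgeR, log2 fold change 0.40, SE 0.39, adjusted p = 0.935). The Cenpf TSS region at chr1:189420223-189420825 had 22.7 and 21.9 CPM in KO 1 and KO 2, against 25.9 and 22.8 CPM in WT 1 and WT 2, the KO libraries just below both WT libraries (edgeR, log2 fold change −0.13, SE 0.24, adjusted p = 0.967). The broad Cdk1 TSS region at chr10:69188029-69188960 had 30.95 and 29.6 CPM in KO 1 and KO 2, against 35.6 and 39.4 CPM in WT 1 and WT 2, without overlap (edgeR, log2 fold change −0.30, SE 0.20, adjusted p = 0.933). The Ccnb1 TSS region at chr13:100923015-100923379 had 20.7 and 17.5 CPM in KO 1 and KO 2, against 19.7 and 22.5 CPM in WT 1 and WT 2, with overlap (edgeR, log2 fold change −0.14, SE 0.26, adjusted p = 0.967).

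**Figure D4:**
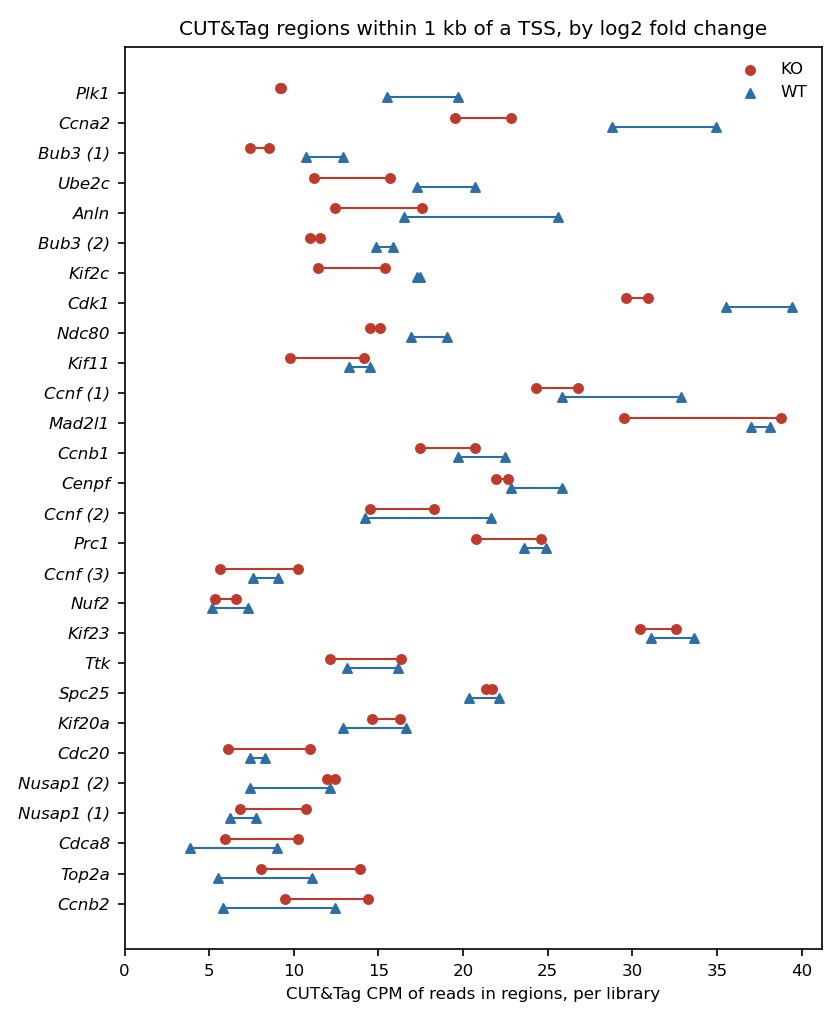
CUT&Tag level (CPM of reads in regions) in each KO library (red circles) and WT library (blue triangles) at the 28 regions within 1000 bp of a TSS, ordered by log2 fold change from the lowest at the top. Plk1 and Ccna2 have both KO libraries well below both WT libraries, and in the lower part of the plot the libraries of the 2 genotypes overlap.

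Summed over all regions of a gene, none of the 28 genes passed edgeR's test, against 12 of 13627 genes, 0.0881%. An unadjusted p under 0.05 was found for Plk1 (edgeR, adjusted p = 0.511) and Ccna2 (edgeR, adjusted p = 0.559), against 7.66% of all genes. DESeq2 called none and had 1 such p. Across the 28 genes, the RNA and CUT&Tag log2 fold changes had a Spearman's rho of −0.10, and WT TPM and WT CUT&Tag level at the TSS one of −0.09 over 24 genes, both descriptions over genes that share libraries. The RNA and CUT&Tag libraries are different samples, so no library can be matched across the assays.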

How the data were processed

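Per the labels' protocols, mRNA was selected with oligo(dT) beads for a stranded RNA-seq kit, and a commercial kit was used for CUT&Tag. HISAT2, StringTie and GRCm39 are named in the submitters' processing notes. The sources used here give no counting tool, strand setting or peak caller. The deposited expected counts per gene are unscaled. For 27 members they were whole in all libraries, and for 4 (Ccna2, Kif4, Kif20a and Prc1) fractional in all. For 4 more they were fractional in some libraries, 2 each for Plk1, Nusap1 and Anln and 1 for Ndc80. Part of the reads of the members with fractional counts may have been shared with other features. The deposited CUT&Tag counts are whole numbers per merged region. The deposited table also has a log2 ratio, a p-value and a q-value for each region, made by the authors with an unnamed test. In the files, 10 per-sample columns were not used.

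Expected counts were rounded and both assays tested with edgeR 4.0.16 in R 4.3.3 (TMM, filterByExpr with a minimum count of 10, robust glmQLFit, glmQLFTest), KO against WT, with Benjamini-Hochberg adjustment over all genes or regions and a threshold of 0.05. The SE is the log2 fold change divided by the square root of F. The tests were run on simulated data with known changes. The simulated counts had a single dispersion and no mitochondrial-share class, so they do not show how the tests behave with such a class. Deviations from the group mean correlated at 0.46, −0.37 and 0.27 between KO and WT libraries of numbers 1, 2 and 3. Such correlations were positive within a mitochondrial-share class and negative between classes. They therefore cannot settle whether replicate numbers pair the RNA libraries, and the labels name no pairing. Alternatives were RLE factors, library totals, DESeq2 1.42.0, other filters, the replicate block, no robust dispersion, mitochondrial share, and each library left out. The members, gene lists and tests were chosen with earlier results of these data known. Values per library are given for called members, 1 or 2 members of each role with the smallest p, and Mki67, Ccnb1, Cdk1, Plk1 and Foxm1. Values of Kif11, Bub1 and Cdc20 per library, and the 7 promoters shown, were chosen after their values were seen.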

Additional observations from a re-analysis of the deposited data

How the results depend on the processing

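The single called member, Ccnb2, was also called with RLE factors, library totals, DESeq2, no filter, a filter of 1 CPM in 3 libraries, no robust dispersion and mitochondrial genes left out. The count of called members was 2 with the class covariate, 6 with the log2 mitochondrial share, and between 0 and 1 with 1 library left out. With the replicate number as a block, no member was called (Ccnb2 adjusted p = 0.0586 in edgeR), and 229 genes were called in all, against 525 without it. Whether the numbers pair the samples is not known. Over all genes, edgeR called 1695 with the class covariate, 2341 with the log2 share and 145 to 506 with 1 library left out, and DESeq2 called 958. The members' median log2 fold change stayed between −0.15 and −0.11 in all RNA settings run. In CUT&Tag no member region and no summed gene was called under any setting run, the replicate block included (0 regions). The sign of 26 members was kept throughout. It turned for Cdc20 (0.013) and Kif2c (0.0027) with library totals, and for Ttk (0.0088) and Ndc80 (0.032) with the class covariate. With 1 library left out, the log2 fold change ranged from −0.16 to 0.041 for Ccnf, −0.16 to 0.15 for Cdc20, −0.19 to 0.0066 for Ube2c, −0.16 to 0.096 for Incenp, −0.13 to 0.0073 for Cdca8, −0.084 to 0.033 for Kif2c, −0.16 to 0.021 for Ttk, −0.24 to 0.094 for Ndc80 and −0.21 to 0.091 for Spc25. The intronic Ccnf region ranged from −0.080 (without KO 2) to 1.12. The cause of these turns was not tested.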
